A study of Mus musculus with 14 samples.

Results

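The genes described here make, activate and inactivate glucocorticoids in the intestine. They are Star, Cyp11a1, Fdx1, Fdxr, Cyp21a1, Cyp11b1, Hsd11b1 and Hsd11b2, 8 genes chosen by name as a pathway known to lie under LRH-1 in the gut, and every probe set of the array carrying one of these as its only gene symbol was taken. By that rule 7 of the 8 genes were found, with 8 probe sets among the 23521 single-symbol probe sets (22180 genes) of the table, Cyp11a1 having 2 of them. Fdxr is not analysed here. Total RNA from the jejunum was labelled with a whole-transcript kit and read on 14 Affymetrix arrays, 1 per mouse, from 7 mice with wild-type LRH-1 (WT) and 7 with LRH-1 K289R. LRH-1 is the nuclear receptor encoded by Nr5a2, and in K289R an arginine replaces a lysine known to accept the protein modifier SUMO, so the comparison asks whether jejunal transcripts of this pathway depend on that site. All mice were 19 to 21 weeks old, lived 5 to a cage, ate freely and were killed at 7 am, and no treatment separates the groups. The labels used here state no strain, sex or litter, nor in which cells the altered receptor is expressed.

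Glucocorticoids are made from cholesterol, mostly in the adrenal cortex but also in the intestinal epithelium, where synthesis is known from proliferating crypt cells and is raised by immune activation. StAR brings cholesterol to the inner mitochondrial membrane, CYP11A1 cuts its side chain to give pregnenolone with electrons passed on by ferredoxin reductase and ferredoxin (Fdxr and Fdx1), 3-beta-hydroxysteroid dehydrogenases give progesterone, CYP21A1 and CYP11B1 complete corticosterone, HSD11B1 regenerates active hormone from its inert 11-keto form, and HSD11B2 runs the opposite reaction. LRH-1 is known to drive Cyp11a1 and Cyp11b1 in gut epithelium, taking the part that its relative SF-1 (Nr5a1) has in the adrenal.

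RefSeq promoter windows on build GRCm38.p6, from 250 bases before to 50 after a start site, were at hand for 4 of the 8 genes, and those of the 3 measured ones are shown because receptors of the LRH-1 family are known to bind an extended half-site. Its core was searched as the letters CAAGGNC, N being any base, on both strands, and matches are in capitals. Cyp11a1 has a pair of annotated starts, at chr9:57997774-57998073 and chr9:58014702-58015001 on the plus strand, Fdx1 lies at chr9:51963553-51963852 and Hsd11b1 at chr1:193242311-193242610, both on the minus strand.
Cyp11a1, upstream start: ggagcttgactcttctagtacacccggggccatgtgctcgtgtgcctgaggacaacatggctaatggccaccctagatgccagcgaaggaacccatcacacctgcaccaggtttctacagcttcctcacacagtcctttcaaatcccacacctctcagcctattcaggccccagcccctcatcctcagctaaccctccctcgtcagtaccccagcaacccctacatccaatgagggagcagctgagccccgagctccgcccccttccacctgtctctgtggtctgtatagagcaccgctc
Cyp11a1, downstream start: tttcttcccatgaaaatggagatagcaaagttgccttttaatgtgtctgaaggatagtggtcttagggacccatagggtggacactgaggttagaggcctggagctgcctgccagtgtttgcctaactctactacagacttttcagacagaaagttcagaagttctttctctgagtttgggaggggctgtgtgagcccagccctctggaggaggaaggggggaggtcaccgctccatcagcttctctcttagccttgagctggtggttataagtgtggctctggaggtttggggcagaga
Fdx1: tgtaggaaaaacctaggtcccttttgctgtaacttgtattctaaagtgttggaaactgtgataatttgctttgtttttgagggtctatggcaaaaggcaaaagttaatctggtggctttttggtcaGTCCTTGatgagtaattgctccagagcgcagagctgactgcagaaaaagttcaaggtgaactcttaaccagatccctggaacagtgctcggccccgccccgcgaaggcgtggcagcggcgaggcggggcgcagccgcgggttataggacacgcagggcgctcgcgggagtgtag
Hsd11b1: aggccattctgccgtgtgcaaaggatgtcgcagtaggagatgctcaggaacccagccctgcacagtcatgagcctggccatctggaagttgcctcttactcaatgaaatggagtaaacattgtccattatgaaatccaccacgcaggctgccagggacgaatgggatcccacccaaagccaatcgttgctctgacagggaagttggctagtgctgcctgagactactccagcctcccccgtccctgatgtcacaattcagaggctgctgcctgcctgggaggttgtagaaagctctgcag
The Fdx1 window holds 1 match, CAAGGAC on the opposite strand. It is printed above as GTCCTTG, whose first base is at −124 from the start. The Cyp11a1 and Hsd11b1 windows hold 0. With Fdxr, which has 1 match, 2 of the 5 windows hold the letters, as do 17.79% of all 32851 windows. The motif is a description of letters, and no binding was measured here.

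Arrays were of even brightness, with median intensities of 168 to 174, and pairs of arrays correlated with r from 0.984 to 0.993. The pieces carried the enterocyte genes of the label: 10 of 10, such as Lct (lactase), Sis (sucrase-isomaltase) and Alpi (intestinal alkaline phosphatase), were above background on all arrays. The ileal bile acid binding gene Fabp6 was bright on 4 of the 14, WT replicates 1 and 6 and K289R replicates 2 and 7, with log2 levels of 9.18 to 12.52, and at 6.09 to 6.63 on the other 10. Hepatocyte genes, Alb among them, were above background on 0 arrays. Among 7 measured adrenal cortex genes the corticotropin receptor gene Mc2r, Nr0b1, Cyp11b2 and Hsd3b1 were above background on 0 arrays, Ccn3 on 7, and Nr5a1 and Mrap on 14.

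Measured against the array background, part of the synthetic pathway was dim in jejunum, as were many other probe sets of the table. Background was taken on each array as the 95th percentile of 1400 probe sets of olfactory and vomeronasal receptor genes, a stand-in for genes without jejunal expression, which lay between log2 7.23 and 7.47. Of the 7 genes, Star, Fdx1 and Hsd11b2 were above it on all 14 arrays, Hsd11b1 on 7, and Cyp11a1, Cyp11b1 and Cyp21a1 on 0. The median of all probe sets lay at log2 7.39 to 7.44, close to this background, so a large share of all probe sets was below it too. That share was not counted, and the count is not read as a trait of this pathway. Means of Cyp11a1 (brighter set), Cyp11b1 and Cyp21a1 exceeded those of 42.1%, 32.1% and 20.7% of all probe sets. With the 25th percentile of all probe sets as background instead, 6 genes were above it on every array, all but Cyp21a1. A signal also depends on the probes, so the levels are not ranked between genes, and a probe set below background shows only that no level could be told from it.

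**Figure D1:**
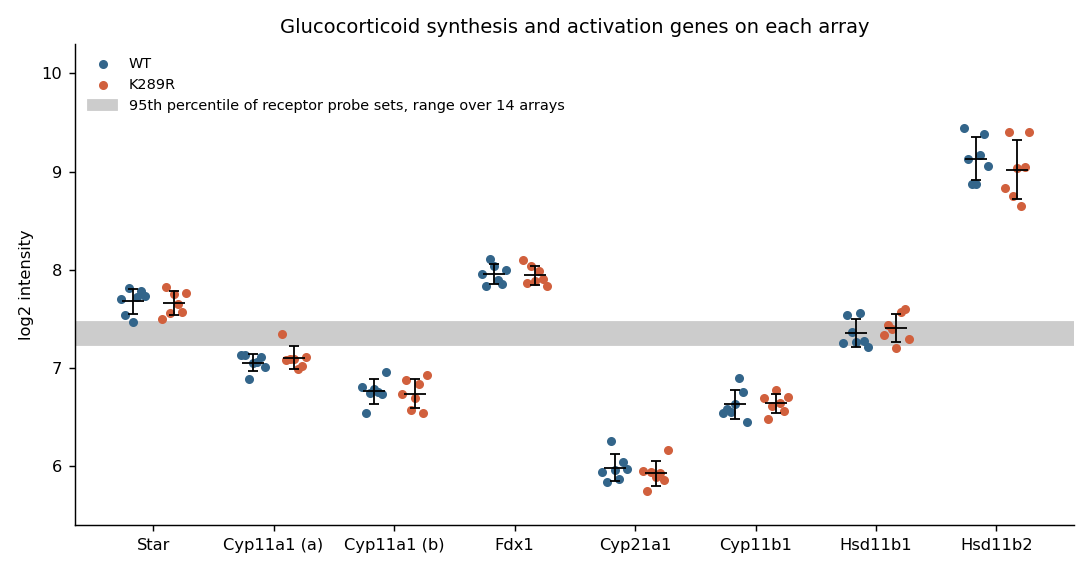
Log2 intensity (vertical axis) of the 8 probe sets (horizontal axis, in pathway order, Cyp11a1 as a brighter set a and a dimmer set b) on each array, WT in blue and K289R in orange, with mean and SD bars (n = 7). The grey band spans the background of the 14 arrays, 7.23 to 7.47: Star, Fdx1 and Hsd11b2 lie above it, Hsd11b1 within and around it, and the other sets below it, but for the Cyp11a1 point of K289R replicate 1 at 7.35, which is level with the background of its own array.

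Star (probe set 17500195), the cholesterol carrier of the first step, had log2 levels of 7.47 (lowest), 7.72 (median) and 7.81 (highest) among WT mice, against 7.50, 7.65 and 7.82 among K289R mice. The genotypes overlapped almost completely. The difference, K289R minus WT, was −0.019 (SE 0.067, limma adjusted p = 0.958), a fold of 0.987 with a 95% interval of 0.895 to 1.09. Its mean was higher than that of 97.1% of the receptor probe sets, so Star stood only a little over them.

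Cyp11a1, which commits cholesterol to steroid synthesis, is read by probe sets 17517828 and 17517831. On the first, the lowest, median and highest levels were 6.89, 7.06 and 7.13 for WT and 6.99, 7.09 and 7.35 for K289R, with K289R replicate 1 the brightest. On the second they were 6.54, 6.75 and 6.96 for WT and 6.54, 6.74 and 6.92 for K289R. Neither exceeded background on any array, although K289R replicate 1 was level with it (7.35 for both), the genotypes overlapped, and the sets did not vary together over the mice (r = −0.096 over 14 arrays, a description). The differences were 0.049 (SE 0.058) and −0.021 (SE 0.072), with limma adjusted p values of 0.853 and 0.958. Without K289R replicate 1 the first was 0.0083. No fold is given for a gene below background in both genotypes.

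Fdx1 (17527004), the ferredoxin that hands electrons to CYP11A1 and CYP11B1 and also to other mitochondrial enzymes, had lowest, median and highest levels of 7.84, 7.96 and 8.11 for WT and 7.83, 7.91 and 8.10 for K289R. It was the steadiest of the 8 probe sets between mice of 1 genotype, with an SD of 0.099, while the median over all single-symbol probe sets was 0.131. The genotypes overlapped throughout, and the difference of −0.010 (SE 0.057, limma adjusted p = 0.975) is a fold of 0.993 with an interval of 0.913 to 1.08.

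The last synthetic steps were not told from background. Cyp21a1 (17343962), the 21-hydroxylase, lay between 5.84 and 6.25 among WT (median 5.96) and between 5.75 and 6.17 among K289R mice (median 5.93). Of the receptor probe sets 73.5% had a lower mean, and the difference was −0.057 (SE 0.069, limma adjusted p = 0.856), or −0.013 without WT replicate 3 and −0.098 without K289R replicate 7. Cyp11b1 (17318045), the 11-beta-hydroxylase, lay between 6.45 and 6.89 among WT (median 6.59) and between 6.48 and 6.78 among K289R mice (median 6.64), a difference of 0.0093 (SE 0.067, limma adjusted p = 0.983). For both genes the groups overlapped, and as all arrays lay below background for these, the data bound neither transcript's change.

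Hsd11b1 (17231229), the activating reductase, sat at the edge of background. WT mice lay between 7.21 and 7.56 (median 7.28) and K289R mice between 7.21 and 7.60 (median 7.40), above background on 3 of 7 WT and 4 of 7 K289R arrays. The brightest arrays were K289R replicate 6 at 7.60, K289R replicate 5 at 7.57, WT replicate 5 at 7.56 and WT replicate 2 at 7.54, so both genotypes had bright and dim mice. The difference was 0.055 (SE 0.073, limma adjusted p = 0.874), and no fold is given because 7 of the 14 arrays were not above background.

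Hsd11b2 (17504829), the inactivating dehydrogenase that shields the mineralocorticoid receptor from glucocorticoids in aldosterone-responsive epithelia, was clearly detected. In WT the 7 arrays, replicates 1 to 7 in turn, were at 9.44, 9.12, 8.88, 8.87, 9.17, 9.38 and 9.06, and in K289R at 8.83, 9.41, 8.75, 9.04, 8.65, 9.05 and 9.41. High and low arrays occurred in both genotypes and the groups overlapped. The WT mean was 9.13 ± 0.22 and the K289R mean 9.02 ± 0.30 (SD, n = 7 each). The difference of −0.11 (SE 0.125, limma adjusted p = 0.840) is a fold of 0.924 with an interval of 0.770 to 1.11, the widest among the 8 probe sets. With 1 array left out the difference lay between −0.18 (without K289R replicate 2 or 7) and −0.052 (without K289R replicate 5). Its SD between mice of 1 genotype was 0.265, larger than that of 94.9% of all single-symbol probe sets.

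In total 0 of the 8 probe sets passed limma's test at an adjusted p under 0.05, and 0 had an unadjusted p under 0.05. Over all 23521 single-symbol probe sets 8 passed (0.0340%) and 7.69% had an unadjusted p under 0.05, so a count of 0 among 8 is near the background share. The exact permutation p of the single values, over 3432 splits, ran from 0.428 for Hsd11b2 to 0.896 for Cyp11b1. The intervals of Star, Fdx1 and Hsd11b2, above background on all arrays, lay within folds of 0.770 and 1.11. Star was only 0.14 to 0.46 and Fdx1 0.36 to 0.76 log2 units above background, against 1.28 to 2.17 for Hsd11b2. Any background left in the values shrinks differences of such dim genes, so these intervals bound the change of signal, not of transcript. The p values of both tests set the genotype difference against the spread between mice, which the labels call biological replicates.

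**Figure D2:**
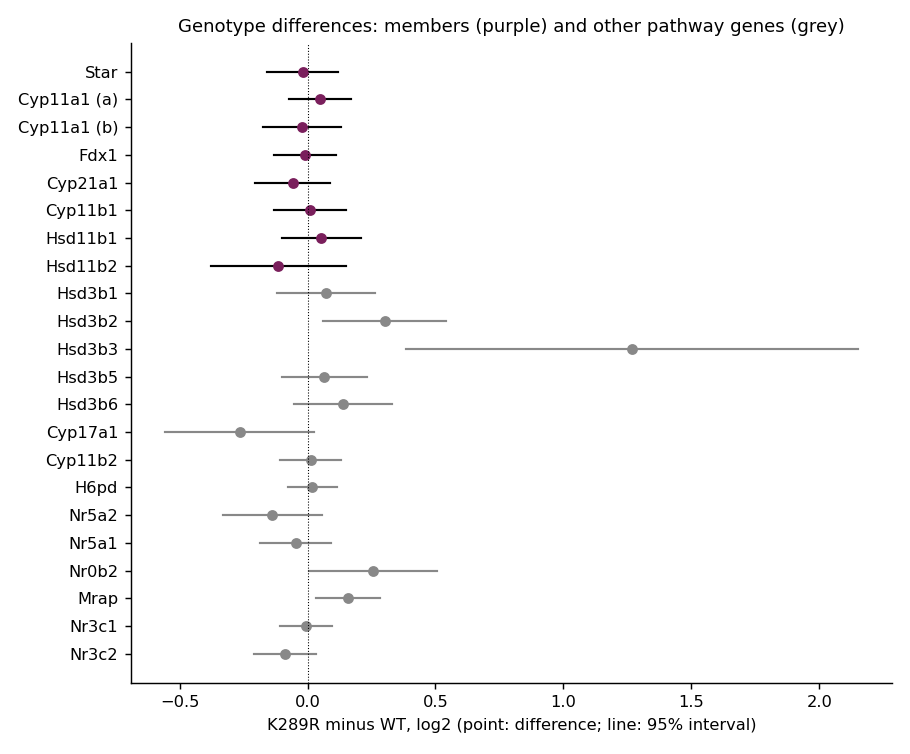
K289R minus WT on the log2 scale (horizontal axis) with limma's 95% interval for the 8 member probe sets (purple points) and 14 other genes of the pathway (grey), 1 gene a line. The member intervals all include 0, that of Hsd11b2 from −0.38 to 0.15, and Hsd3b3 has the widest, from 0.39 to 2.15.

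The high Hsd11b2 arrays were those with bright Fabp6. Other distal genes followed Fabp6 only in part. Slc10a2 was at 7.12 to 10.52 on the 4 arrays and at 6.14 to 6.60 on the other 10, above background on 2 arrays. Fgf15 (7.31 to 10.56 against 7.19 to 9.90) and Nts (10.07 to 10.61 against 9.55 to 10.28) overlapped. Fgf15 was at 7.31 on WT replicate 1, where Fabp6 was brightest. On the 4 arrays with bright Fabp6, Hsd11b2 was at 9.38 to 9.44, and on the other 10 at 8.65 to 9.17, so these did not overlap. Of all single-symbol probe sets 0.804% (189) kept the same arrays apart, in either direction. These arrays were singled out on their Fabp6 level, no test was made between them, and their part in the Hsd11b2 spread was not tested. On the 10 arrays with dim Fabp6 the 5 WT mice ran from 8.87 to 9.17 and the 5 K289R mice from 8.65 to 9.05, and the genotype difference there was −0.16 (limma adjusted p = 0.757). The other 7 member probe sets overlapped between these arrays: Star was at 7.70 to 7.82 with bright Fabp6 and at 7.47 to 7.81 without, and Fdx1 at 7.83 to 7.96 and 7.84 to 8.11. Within the dim arrays Hsd11b2 and Fabp6 had r = 0.36 over 10 arrays, with genotype means not removed, given as a description. No r over all 14 is given, as Fabp6 falls into separate clusters.

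**Figure D3:**
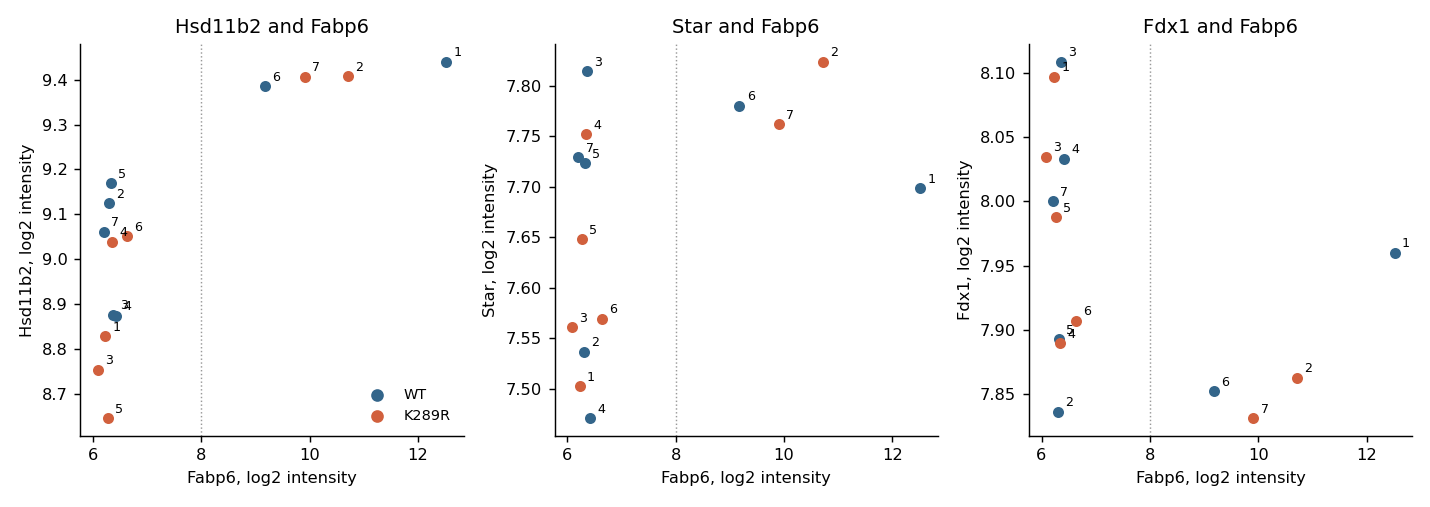
Log2 intensity of Hsd11b2, Star and Fdx1 (vertical axes) against that of Fabp6 (horizontal axis) on the 14 arrays, WT in blue and K289R in orange, numbered by replicate, with a dotted line at a Fabp6 level of 8. The 4 arrays to the right of the line hold the 4 highest Hsd11b2 values, 9.38 to 9.44, whereas Star and Fdx1 overlap across the line.

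Levels of the detected members were also set beside those of cell marker lists. Star, Fdx1 and Hsd11b2 were each set against the mean log2 level of 7 marker lists, 21 correlations over 14 mice with permutation p values (100000 resamples) adjusted over the 21, and 6 passed by Pearson's r and 2 by Spearman's rho. Without the 4 arrays with bright Fabp6 0 of 21 passed, over 10 mice. All but the distal list's are given with the share of 18009 genes that was correlated at least as strongly with the same list. In bulk tissue fewer cells of a type and less RNA per cell cannot be told apart.

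Hsd11b2 was lower where the mean of the enterocyte list was higher, with r = −0.82 (permutation p = 0.00047, adjusted 0.00693) and rho = −0.78 (permutation p = 0.00195, adjusted 0.0410). The r was −0.95 within WT, −0.91 within K289R, −0.78 without the 2 mice farthest from the median and −0.59 on the 10 arrays with dim Fabp6, and 1.28% of genes were as strongly correlated. The list's genes did not go 1 way on the arrays with bright Fabp6. Apoa4, an apolipoprotein gene, was lower there (13.62 to 13.93 against 13.94 to 14.06), and Fabp1 (11.36 to 12.36 against 12.29 to 13.08) and Lct (12.45 to 13.17 against 13.09 to 13.42) overlapped only at the edge. Sis (13.53 to 13.66 against 13.49 to 13.60) and Fabp2 (13.58 to 13.66 against 13.46 to 13.65) were not lower. With the T cell genes Hsd11b2 had r = −0.69 (permutation p = 0.00817, adjusted 0.0343) and rho = −0.60 (permutation p = 0.0279, adjusted 0.0835), −0.74 within WT, −0.62 within K289R, −0.61 without the 2 farthest mice and −0.48 on the dim arrays, and 2.60% of genes did as much over all 14. This call was lost without any 1 of WT replicates 1, 3, 5 and 6 and K289R replicates 2, 3, 5. Its adjusted p over the distal small intestine list, Fabp6 with Slc10a2, Fgf15 and Nts, also passed, but that mean was highest on the same 4 arrays, so no r over all 14 is given, and on the other 10 r was 0.12.

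Fdx1 was lower where macrophage and fibroblast genes were higher. With the 8 macrophage genes r was −0.77 (permutation p = 0.00170, adjusted 0.0119) and rho −0.72 (permutation p = 0.00445, adjusted 0.0467), with −0.77 within WT, −0.79 within K289R, −0.72 without the 2 farthest mice and −0.81 on the dim arrays, and 1.65% of genes did as much. With the 8 fibroblast genes r was −0.76 (permutation p = 0.00268, adjusted 0.0141) and rho −0.69 (permutation p = 0.00828, adjusted 0.0580), with −0.90 and −0.91 within the genotypes, −0.66 without the 2 farthest mice and −0.78 on the dim arrays, and 3.13% of genes did as much. With the enterocyte genes r was 0.65 (permutation p = 0.0128, adjusted 0.0447) and rho 0.66 (permutation p = 0.0124, adjusted 0.0605), with 0.61 and 0.73 within the genotypes, 0.72 without the 2 farthest mice and 0.67 on the dim arrays, and 6.79% of genes did as much. This last call was lost without any 1 of WT replicates 3 to 7 and K289R replicates 2, 4, 6 and 7. With the crypt genes Fdx1 had r = −0.56 (permutation p = 0.0312, adjusted 0.0819) and Hsd11b2 0.58 (permutation p = 0.0227, adjusted 0.0682), which did not pass. Their rho was −0.61 and 0.40, and r on the dim arrays −0.53 and 0.69. Of genes 17.4% and 15.2% did as much over all 14. Star passed with 0 of the 7 lists. All 8 fibroblast and 8 smooth muscle genes had a higher mean in K289R, with list medians of 0.25 for both. This was not particular to these lists. Also higher were 7 of 7 B and plasma cell, 6 of 6 endothelium, 7 of 8 T cell, 7 of 8 macrophage and 5 of 6 adipocyte genes. Their medians were 0.15, 0.14, 0.27, 0.088 and 0.16. Of the enterocyte genes 4 of 10 were higher. An unadjusted p under 0.05 was found for 6 of the smooth muscle and 5 of the fibroblast genes, where 7.69% of all probe sets had one, and 0 of the 16 passed the test. With a list mean as a covariate the Fdx1 difference was at 0.082 with the smooth muscle mean and 0.0098 with the enterocyte mean, on the other side of 0 from −0.010, and that of Hsd11b2 at −0.26 and −0.19 (limma adjusted p = 0.578 and 0.514). With the enterocyte mean 1 of the 8 member probe sets, Hsd11b2, had an unadjusted p under 0.05, and 0 passed the threshold. Over all 23521 single-symbol probe sets 1829 had an unadjusted p under 0.05 in that fit.

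**Figure D4:**
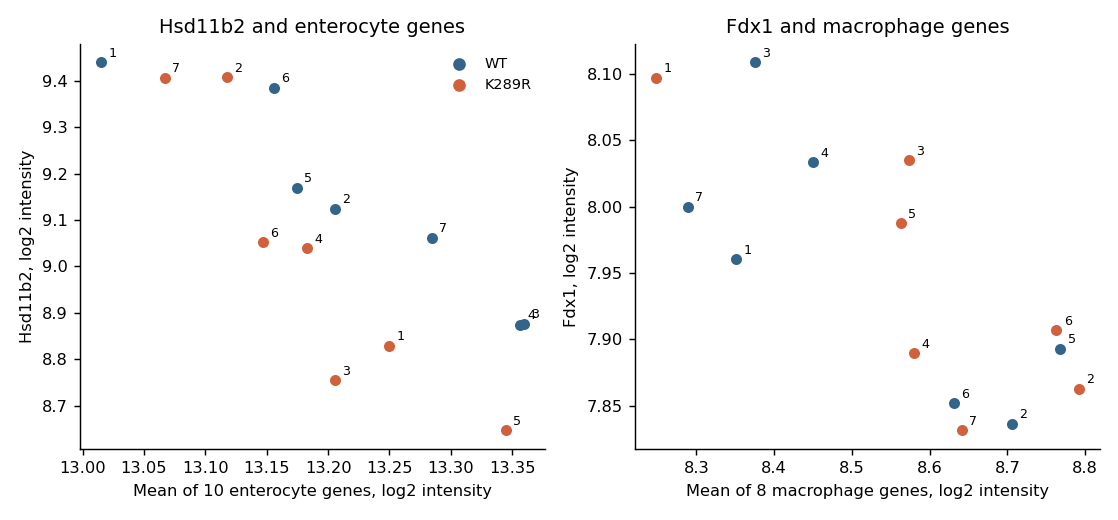
Left, Hsd11b2 log2 intensity against the mean of 10 enterocyte genes. Right, Fdx1 against the mean of 8 macrophage genes. Each point is a mouse, numbered by replicate, WT in blue and K289R in orange. Both fall from left to right in each genotype (r of −0.95 and −0.91 for Hsd11b2, −0.77 and −0.79 for Fdx1, in WT and K289R).

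The genes whose levels followed each detected member most closely, by r over the 14 mice after removing genotype means and among 18008 genes, differed in kind. For Hsd11b2 they were Hpd, a tyrosine catabolism enzyme gene (r = 0.94), Elapor1 (0.94) and Mpzl1 (0.91). On the 10 arrays with dim Fabp6, genotype means not removed, these were 0.73, 0.77 and 0.66. Hpd also kept the bright Fabp6 arrays apart, at 9.35 to 9.56 against 8.72 to 9.33. For Fdx1 they were Cgn, the tight junction protein cingulin (0.92), Aco1, the cytosolic aconitase that doubles as an iron regulatory protein (0.91), and the olfactory receptor gene Olfr1370 (0.91). For Star they were the vomeronasal receptor gene Vmn1r148 (0.92), Gm19281 (0.91) and the noncoding RNA gene Miat (0.86). On the dim arrays the values in the same order were 0.75, 0.87 and 0.93 for Fdx1 and 0.92, 0.90 and 0.88 for Star. These genes were picked as the highest of many, so the values are a description. Receptor genes of the kind used as background were among the nearest to both Star and Fdx1.

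The step between pregnenolone and progesterone belongs to the Hsd3b genes, and of these Hsd3b3 had the widest spread among mice. It did not pass the threshold. Hsd3b3 was on WT replicates 1 to 7 at 8.45, 7.87, 5.85, 5.71, 6.01, 6.15 and 6.13, and on K289R replicates 1 to 7 at 7.88, 9.29, 7.05, 7.81, 7.71, 7.26 and 8.06. Of the WT mice 5 were at 6.15 or lower, whereas WT replicates 1 and 2 lay among the K289R mice, none of which was under 7.05. The difference was 1.27 (SE 0.418, 95% interval 0.39 to 2.15, limma adjusted p = 0.479), and 8 of 14 arrays were above background. WT replicates 3 to 7 and K289R replicate 3 were not, so the size of the difference is uncertain. Hsd3b2 differed by 0.30 (SE 0.114, limma adjusted p = 0.543), with a WT mean of 6.42 ± 0.26 and a K289R mean of 6.72 ± 0.22 (SD, n = 7 each), all arrays below background, so the value bounds no change. It was highest in K289R replicate 2 and, among WT, in replicates 1 and 2, as Hsd3b3 was. Hsd3b1, Hsd3b2, Hsd3b3, Hsd3b5 and Hsd3b6 are close paralogs in 1 cluster and their probes may share signal. The gene that carries the Hsd3b3 and Hsd3b2 values is therefore uncertain. Hsd3b1, Hsd3b5 and Hsd3b6 were above background on 0 arrays, with differences of 0.072, 0.065 and 0.14, and Hsd3b7, which acts in bile acid synthesis, was above it on 14 and differed by −0.028 (SE 0.070).

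**Figure D5:**
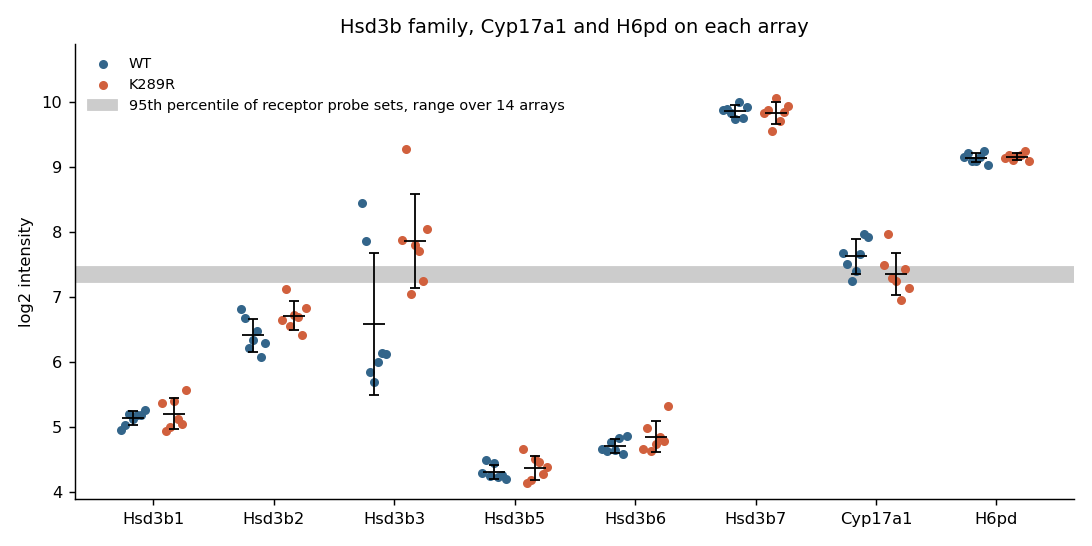
Log2 intensity (vertical axis) of the Hsd3b genes, Cyp17a1 and H6pd (horizontal axis) on each array, WT in blue and K289R in orange, with mean and SD bars (n = 7) and the background of the arrays as a grey band. Hsd3b3 spans 5.71 to 8.45 among WT mice and 7.05 to 9.29 among K289R mice, and H6pd stays between 9.05 and 9.25.

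Of 28 measured other steroid enzyme genes 0 passed limma's test, 4 had an unadjusted p under 0.05 (7.69% over all probe sets) and the median difference was −0.016, with −0.0047 over all probe sets. The 4 were Hsd3b3, Hsd3b2, Hsd17b6, with a WT mean of 11.67 and a K289R mean of 11.41 (−0.27, SE 0.099), and the cytochrome b5 reductase gene Cyb5r3 (−0.14, SE 0.059). Cyp17a1, whose product leads to androgens and cortisol, lay between 7.25 and 7.97 among WT and between 6.96 and 7.98 among K289R mice, above background on 9 arrays, with a difference of −0.27 (SE 0.138, limma adjusted p = 0.672). H6pd, the hexose-6-phosphate dehydrogenase that supplies HSD11B1 with NADPH, was above background on all arrays, with a difference of 0.019 (95% interval −0.077 to 0.11). Genes of cholesterol supply were all detected, 10 of 10, and 0 passed. Stard3, a StAR-related transporter of late endosomes, differed by −0.13 (SE 0.060), Stard4 by 0.097 (SE 0.080) and Acbd3 by 0.059 (SE 0.053).

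The upstream regulators did not pass either, 0 of 19, with 2 at an unadjusted p under 0.05, near the 7.69% of all probe sets. Nr5a2 itself had a WT mean of 10.32 ± 0.18 and a K289R mean of 10.18 ± 0.19 (SD, n = 7 each), a difference of −0.14 (SE 0.092). A change of 1 residue need not move its transcript, so the value does not check the genotype. Nr0b2, the corepressor SHP, differed by 0.25 (SE 0.119, limma adjusted p = 0.636) and Mrap, an accessory protein of the corticotropin receptor, by 0.16 (SE 0.059, limma adjusted p = 0.543). Il1b, an inflammatory cytokine gene, differed by −0.17 (SE 0.099).

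Downstream, both hormone receptors were above background on all arrays. Nr3c1, the glucocorticoid receptor, had means of 10.60 in both genotypes and a difference of −0.0062 (95% interval −0.11 to 0.096). Nr3c2, the mineralocorticoid receptor, had a WT mean of 9.21 and a K289R mean of 9.12, a difference of −0.088 (95% interval −0.21 to 0.034). Of the 13 measured genes for these receptors and their chaperones 10 had a lower mean in K289R, with a median of −0.088, 0 passed and 4 had an unadjusted p under 0.05 (7.69% over all probe sets). These were the chaperone genes Fkbp4 (−0.21, SE 0.061, limma adjusted p = 0.422), Hspa8 (−0.19, SE 0.056), Stip1 (−0.30, SE 0.104) and Hsp90aa1 (−0.30, SE 0.115). For each of them the genotypes overlapped. WT and K289R ranges were 10.42 to 10.66 and 10.13 to 10.48 for Fkbp4, and 12.99 to 13.35 and 12.89 to 13.04 for Hspa8. They were 9.97 to 10.69 and 9.79 to 10.17 for Stip1, and 9.45 to 10.27 and 9.41 to 9.72 for Hsp90aa1. Stip1 and Hspa8 were both highest on WT replicates 6 (10.69 and 13.35) and 7 (10.45 and 13.27). Fkbp4 was highest on WT replicates 7 (10.66), 2 (10.65) and 6 (10.63). Fkbp4, Hspa8 and Stip1 thus shared bright arrays in part, so the 4 are not read as separate results.

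Targets of the hormones were split in direction. Of 25 glucocorticoid response genes 12 had a higher and 13 a lower mean in K289R, with a median of −0.0011 and 3 at an unadjusted p under 0.05, near the 7.69% of all probe sets. Those were Anxa1, which encodes annexin A1 (0.24, SE 0.078, limma adjusted p = 0.478), Errfi1 (0.22, SE 0.089) and Mt1, a metallothionein gene (−0.29, SE 0.131), whose level of 10.69 on WT replicate 2 stood apart from the other WT arrays. Of 10 measured mineralocorticoid response genes 5 were higher and 5 lower, and 1, the deubiquitinase gene Usp2 (−0.20, SE 0.066, limma adjusted p = 0.490), had an unadjusted p under 0.05, also near that share. Tsc22d3, the glucocorticoid-induced leucine zipper gene, differed by −0.15 (SE 0.085) and Atp1b1, a sodium pump subunit gene, by −0.063 (SE 0.047). In each of these lists 0 genes passed the test over all probe sets.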

How the data were processed

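The authors deposited 1 linear intensity per probe set and array, 41345 probe sets with no missing value, from 7.40 to 20050. They came from Affymetrix Expression Console, per the submitters' processing notes. Neither its version nor the summarisation or normalization is stated in the sources used here. Columns have near-equal quartiles, so values were log2-transformed and not normalized further, and any background left in them shrinks the differences of dim genes. The platform annotation gave 23521 probe sets 1 symbol and 1814 several (left out), and 16010 are unnamed here. The genotype contrast, K289R minus WT, was fitted by limma 3.58.1 (R 4.3.3; lmFit and eBayes, 2-sided, no covariate or filter) to all single-symbol probe sets with Benjamini-Hochberg adjustment. The steps were tested on simulated data. A list gene is read by its brightest probe set. Named genes are the members, Nr5a2, Nr3c1, Nr3c2, H6pd, Cyp17a1, the Hsd3b genes, the 3 smallest p values of each pathway list and the 3 genes most correlated with each detected member; Cyb5r3, Hsp90aa1 and the distal and tissue markers were named outside that rule after their values were seen. Members and lists were chosen with earlier results of these data known. The paneth, B and plasma cell, endothelium, adipocyte and pancreatic lists served as markers and had 0 called genes each. The labels tie equal replicate numbers to nothing shared, so the mice were not paired in the main fit. Same-numbered WT and K289R arrays had deviations correlated between −0.133 and 0.125. Differently numbered arrays were not compared, so these values do not decide whether same-numbered mice share anything. Alternatives changed scaling, offset, unit, filter, variance model, weights, block, covariates and arrays.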

Additional observations from a re-analysis of the deposited data

Results flagged for a closer look

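The brighter Cyp11a1 probe set was at 7.35 on K289R replicate 1, where the other 6 K289R arrays lay between 6.99 and 7.11. The others were below the background of their arrays and this one was level with it, at 7.35. Mt1 was at 10.69 on WT replicate 2 and at most at 10.10 on the other WT arrays. These 2 were the ones that stood apart by Dixon's limit for 7 samples among 70 groups of 7 looked at, where chance alone gives about 1 in 20.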

How the results depend on the processing

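The count of member probe sets past the threshold was 0 in every refit that was run, also at an adjusted p under 0.1. Over 28 refits of 35 differences, 963 values in all, 0 passed the threshold (lowest adjusted p = 0.189, for Hsd3b3 with array weights, and 0.514 among members), and 27 of the 35 kept their sign throughout. The sign turned in 28 values, at most 0.082 in size, which was Fdx1 against −0.010 without a covariate. With the smooth muscle mean in the fit these were Cyp11b1 at −0.0054, Fdx1 at 0.082, Nr3c1 at 0.032 and H6pd at −0.016. With the enterocyte mean Fdx1 was at 0.0098. Without the arrays with bright Fabp6 Fdx1 was at 0.0090, Nr3c1 at 0.052 and Hsd3b6 at −0.018, and with array weights Hsd3b7 at 0.0001. With 1 array left out the ranges that crossed 0 were −0.057 to 0.013 for the dimmer Cyp11a1 set, −0.021 to 0.053 for Cyp11b1, −0.036 to 0.015 for Fdx1, −0.067 to 0.018 for Hsd3b7, −0.023 to 0.018 for Nr3c1 and −0.054 to 0.0068 for Star. Ranges on 1 side of 0 were 0.0083 to 0.068 for the brighter Cyp11a1 set, −0.098 to −0.013 for Cyp21a1, 0.022 to 0.089 for Hsd11b1 and −0.18 to −0.052 for Hsd11b2. The cause was not tested.

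The 8 probe sets past the threshold over the whole table became 4 with arrays shifted to 1 median, with all probe sets of the table or with the enterocyte covariate, 14 with array weights, 2 with the smooth muscle covariate, 5 without the bright Fabp6 arrays, 13 at an adjusted p under 0.1, and 4 to 9 with 1 array left out (4 without WT replicate 3 or 4 or K289R replicate 1, 2, 4 or 6, and 5 without replicate 7 of either genotype). With the replicate block 0 passed (1716 at an unadjusted p under 0.05, limma), and it changed no call among the members. Genes above background on all arrays were 6 in place of 3 with the lower limit of the 25th percentile. Correlations past the threshold were 6 of 21, 4 to 6 with 1 array left out, and 0 of 21 without the bright Fabp6 arrays, where 10 mice remain. With quantile normalization 7 passed, Fdx1 with the crypt list being added. With genotype means removed 7 passed, Hsd11b2 with the crypt list being added. A crypt correlation also passed without K289R replicate 3, 4 or 5. Leaving out the distal list, chosen after seeing the data, gave 5 of 18. Signal over background limits Cyp11a1, Cyp11b1, Cyp21a1 and, in part, Hsd11b1.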
